A study of Homo sapiens with 6 samples.

Results

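The genes described here are 10 members of the epidermal growth factor (EGF) system of a human gut cell line. They are the ligand genes AREG, EREG, TGFA, HBEGF and BTC, the receptor genes EGFR, ERBB2, ERBB3 and ERBB4, and LRIG1, a receptor regulator. Their rows were found by gene symbol, without a threshold on any value, and all 10 have a row among the 58735 named genes of the count table. The data are poly(A) RNA-seq of LS174T, an established line from a human colorectal adenocarcinoma whose cells the labels call goblet-like. There were 3 wild-type libraries and 3 libraries with the genotype label FXYD3 knockout. FXYD3 encodes a small membrane protein that modulates the Na,K-ATPase. The labels give no treatment and do not say how FXYD3 was edited, whether the knockout cells were 1 clone, or whether replicate libraries derive from independent cultures. The p-values below therefore reflect library-to-library spread alone, and that spread may be technical.

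EGF family ligands are made as membrane-anchored precursors, and a metalloprotease, most often ADAM17, cuts them free. A ligand binds an ERBB receptor, the receptor pairs with another ERBB, and its kinase domain feeds the RAS-ERK and PI3K-AKT routes. In the gut epithelium these ligands drive growth and repair of the crypt, and LRIG1, which is found in crypt stem cells, restrains the receptors.

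Named genes received 15417232 to 19453217 counts per library. Across tested genes, Pearson's r of the log2 levels was 0.993 to 0.994 within a group and 0.973 to 0.976 between the groups. FXYD3 itself had 54, 91 and 55 counts in wild-type libraries 1, 2 and 3 and 79, 131 and 85 in knockout-labelled libraries 1, 2 and 3. Its level was 3.88 ± 1.07 and 5.61 ± 0.932 CPM, read counts scaled to library size (SD, n = 3 each; log2 fold change 0.54, SE 0.20, edgeR adjusted p = 0.0522), so the knockout-labelled libraries did not have less of the transcript, and groups carry the names of their labels. FXYD3 was called higher in 4 of 14 alternatives, with the smallest adjusted p without wild-type library 2 (log2 fold change 0.79, adjusted p = 0.00313). Of 9 colorectal epithelial markers all passed the filter on low counts, and 3 were called (33.3%, against 24.3% of all genes tested). GPA33 fell by 0.62 and CDH1, which encodes E-cadherin, by 0.36 on the log2 scale, and LGALS4 rose by 0.22 (edgeR adjusted p = 2.38e-09, 0.00127 and 0.00822). The 9 summed to 10204 to 11507 CPM in wild type and 11040 to 11788 CPM in the knockout-labelled libraries. Most of that sum was KRT8, at 6918 ± 462 and 7316 ± 212 CPM, so it says little about the other markers. Of 14 markers of leukocytes, fibroblasts and endothelium, 12 stayed at or below 1 CPM in every library and 5 had 0 counts throughout. The exceptions were LYZ, at 30.96 to 33.6 CPM in all 6 libraries, and the collagen gene COL3A1, at 0.224 to 0.404 CPM in wild type and 5.17 to 6.08 CPM in the knockout-labelled libraries. Fibroblast markers together summed to 0.337 to 0.868 CPM in wild type and 5.47 to 7.10 CPM in the knockout-labelled libraries, and COL1A2 was at 0 in all 6. The part of these epithelial and fibroblast markers in the results below was not tested.

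Amphiregulin (AREG) and epiregulin (EREG) transcripts rose in the knockout-labelled libraries, TGFA, HBEGF and LRIG1 fell, and EGFR, ERBB2, ERBB3 and BTC did not pass the test. ERBB4 was too low to test. Of the 9 genes tested, 2 were called higher and 3 lower at an edgeR adjusted p below 0.05. The HBEGF call was lost in 7 of 14 alternative analyses and the TGFA call in 3, while those of AREG, EREG and LRIG1 held in all 14. Over all 15351 genes tested, 24.3% were called, 12.0% higher and 12.4% lower. The wild-type and knockout-labelled ranges did not overlap for 5 of the 9 (AREG, EREG, TGFA, BTC and LRIG1), against 37.2% of all genes tested. In these bulk samples fewer cells of a type and less RNA per cell cannot be told apart.

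**Figure D1:**
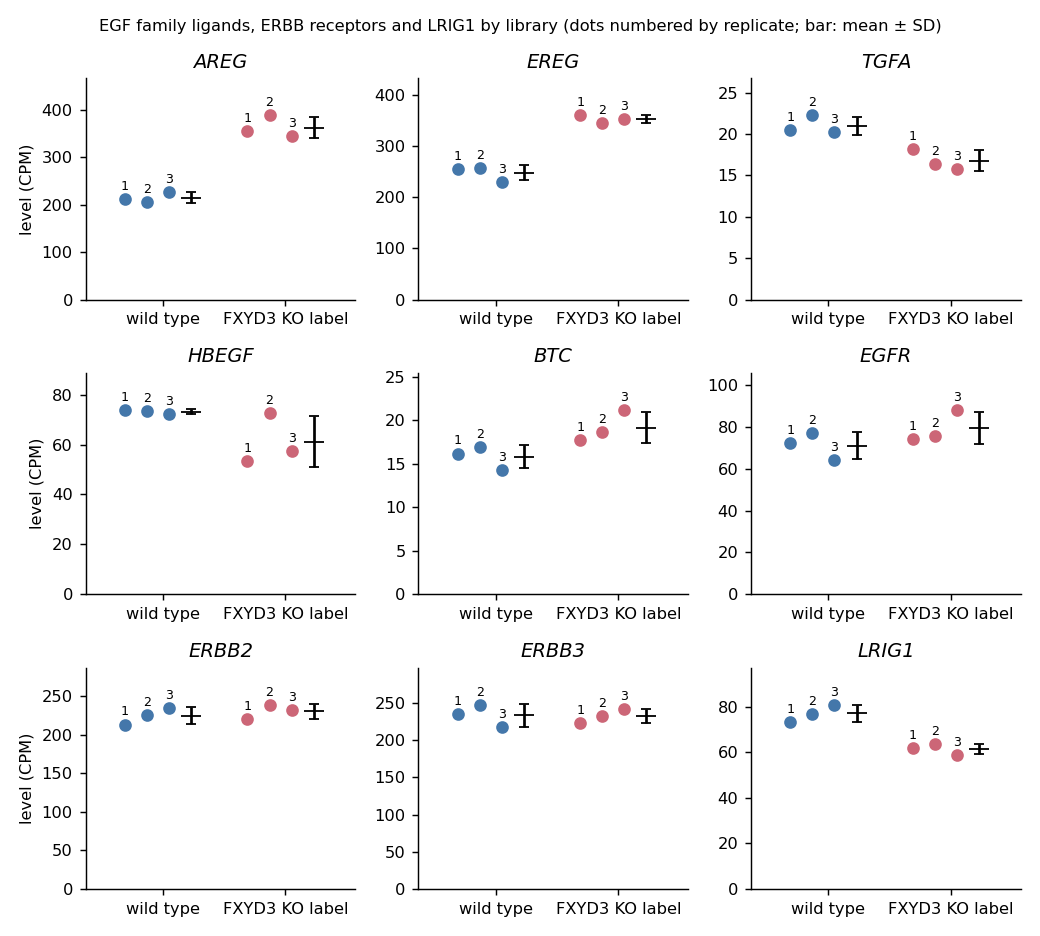
Level in CPM (linear axis from 0) of the 9 tested genes in each of 3 wild-type (blue) and 3 knockout-labelled (red) libraries, numbered by replicate, with mean ± SD. AREG and EREG lie higher in every knockout-labelled library, LRIG1 and TGFA lie lower, and HBEGF of knockout-labelled library 2 (72.8 CPM) lies among the wild-type values.

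AREG, a ligand of EGFR that binds heparin, was measured at 212, 205 and 227 CPM in wild-type libraries 1, 2 and 3. In knockout-labelled libraries 1, 2 and 3 it was at 354, 388 and 345 CPM. Every knockout-labelled library stood above every wild-type one. The means were 215 ± 11.5 and 362 ± 22.8 CPM (SD, n = 3 each), a rise of 1.69-fold (95% interval 1.55 to 1.84; log2 fold change 0.76, SE 0.06, edgeR adjusted p = 1.21e-10).

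EREG, which binds EGFR and ERBB4, was measured at 255, 257 and 231 CPM in wild type and at 361, 345 and 354 CPM where the label was knockout. Again the groups did not overlap. EREG rose 1.42-fold (95% interval 1.31 to 1.55; log2 fold change 0.51, SE 0.06, edgeR adjusted p = 8.37e-08). The AREG call and the EREG call held in all 14 alternative analyses.

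Whether AREG rose more than EREG was asked from their ratio inside each library, which does not depend on scaling. Per gene length, AREG stood at 2.88, 2.77 and 3.42 times EREG in wild type and at 3.41, 3.91 and 3.38 times EREG under the knockout label. The ranges overlapped, since wild-type library 3 was above knockout-labelled libraries 1 and 3. An exact two-sided permutation test of the ratio gave p = 0.3, but 3 against 3 libraries cannot go below 0.1, so this test could not settle the question. The 95% intervals of the log2 fold changes, 0.63 to 0.88 for AREG and 0.39 to 0.63 for EREG, met without overlapping, which is no test of the difference.

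AREG and EREG are neighbours on chromosome 4, both on the plus strand. On GRCh38 AREG (ENSG00000109321) spans 74445134 to 74455009 and EREG (ENSG00000124882) spans 74365143 to 74388751, with 56383 bases between them. No gene of the table overlaps either of them. BTC (ENSG00000174808; 74744759 to 74794686, minus strand) lies 289750 bases beyond AREG. On the other side of EREG the nearest tested protein-coding gene was MTHFD2L, a mitochondrial folate enzyme, 62044 bases away. MTHFD2L rose too, from 36.6 ± 1.57 to 53.4 ± 2.99 CPM (log2 fold change 0.54, SE 0.08, edgeR adjusted p = 3.52e-06). It overlaps the antisense gene AC093677.2, and the strand setting of the counting is not given. Past BTC, PARM1 was at 75.9 ± 4.72 and 77.6 ± 6.30 CPM (edgeR adjusted p = 0.803).

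EPGN, the epigen gene and a further EGF family ligand, lies between MTHFD2L and EREG. No wild-type library had a count of it, and knockout-labelled libraries 1, 2 and 3 had 7, 0 and 7. All 14 counts came from knockout-labelled libraries 1 and 3. EPGN was too low to test, so no fold is given.

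**Figure D2:**
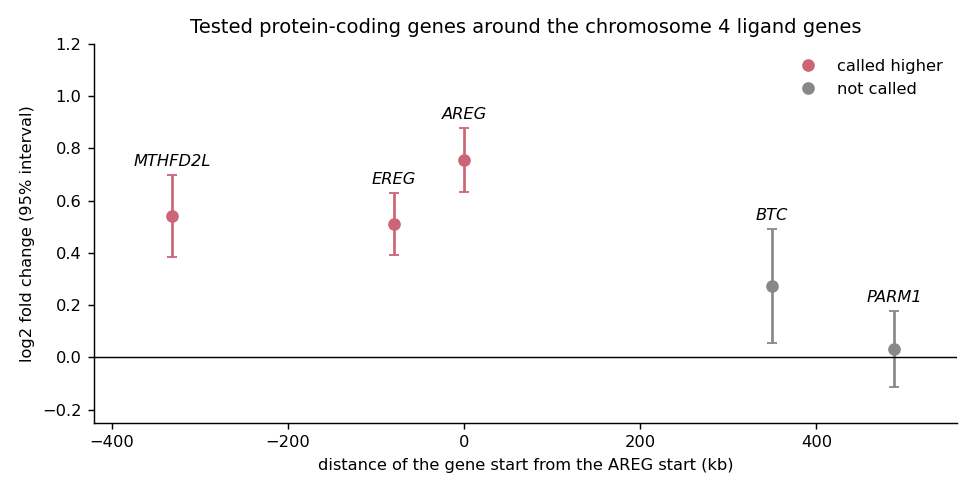
Log2 fold change (knockout label over wild type, with 95% interval) of the tested protein-coding genes around AREG, by distance of each gene's start from the AREG start in kb. MTHFD2L, EREG and AREG were called higher at 0.54, 0.51 and 0.76, and BTC and PARM1, at 0.27 and 0.03, were not called.

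Since AREG and EREG rose together, their promoters are shown side by side. These are 240 bases on the plus strand that end 10 bases before the RefSeq start (RefSeq table, build GRCh38.p14), chr4:74444886-74445125 for AREG and chr4:74364895-74365134 for EREG. Capitals mark matches to a cAMP response element (TGACGTCA), a TATA motif (TATAAA) or a CCAAT motif.
AREG: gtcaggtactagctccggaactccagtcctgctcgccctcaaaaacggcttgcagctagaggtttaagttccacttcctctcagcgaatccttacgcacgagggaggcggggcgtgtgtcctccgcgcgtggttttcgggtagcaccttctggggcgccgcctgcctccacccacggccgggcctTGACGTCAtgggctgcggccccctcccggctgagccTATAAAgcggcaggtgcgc
EREG: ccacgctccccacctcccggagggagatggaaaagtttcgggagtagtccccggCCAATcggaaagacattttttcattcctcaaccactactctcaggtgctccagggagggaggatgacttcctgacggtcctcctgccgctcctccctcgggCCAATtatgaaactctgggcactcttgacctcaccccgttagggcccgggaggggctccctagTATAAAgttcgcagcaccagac

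Both windows hold TATAAA, which begins 29 bases before the start of AREG and 32 before that of EREG. Searched on both strands, TATAAA occurs in 10.6% of the 35116 promoter windows of the same length. AREG has the cAMP response element 65 bases before its start, a motif found in 1.57% of windows, and EREG has no match to it. EREG has CCAAT at 196 and 95 bases before its start, a motif in 31.4% of windows, and AREG has none in the window. Neither window has the AP-1 motif TGANTCA (6.43% of windows), whose matches cannot lie inside the cAMP response element. RefSeq windows were matched for 9 of the 10 genes, 14 start sites in all, and only AREG among those 9 had the cAMP response element. TATAAA was found for 3 of the 9 genes, the third being EGFR at the second of its 2 start sites. These matches describe letters in a window and not bound sites.

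The ligand genes that fell were TGFA and HBEGF, by smaller amounts. TGFA (ENSG00000163235; chromosome 2, 70447280 to 70554193, minus strand) encodes transforming growth factor alpha, a ligand of EGFR. It was at 20.5, 22.3 and 20.3 CPM in wild type and at 18.2, 16.4 and 15.8 CPM in the knockout-labelled libraries, with no overlap. TGFA fell to 0.797 of the wild-type level (95% interval 0.692 to 0.918; log2 fold change -0.33, SE 0.10, edgeR adjusted p = 0.0165). DESeq2 did not call TGFA (adjusted p = 0.0546), nor did edgeR without knockout-labelled library 2 (0.061) or 3 (0.0852).

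HBEGF (ENSG00000113070; chromosome 5, 140332843 to 140346631, minus strand) encodes heparin-binding EGF-like growth factor, which binds EGFR and ERBB4. Its wild-type levels lay close together at 73.9, 73.5 and 72.1 CPM. Knockout-labelled libraries 1, 2 and 3 had 53.6, 72.8 and 57.3 CPM, so library 2 stood within the wild-type range and the groups overlapped. The log2 fold change was -0.25 (SE 0.09, edgeR adjusted p = 0.0425). That call was lost in 7 of 14 alternatives: DESeq2, total-count and upper-quartile scaling, and leaving out replicate 1 or 3 of either group (adjusted p 0.0558 to 0.222). Without knockout-labelled library 2 the HBEGF value was -0.40 (adjusted p = 0.000695), and without library 1 of that group it was -0.17. PFDN1, FAM136A and ANKHD1, the tested coding genes nearest to HBEGF and TGFA within 200 kb, were not called.

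BTC, which encodes betacellulin, a ligand of EGFR and ERBB4, went the way of AREG and EREG in its values but did not pass. It was at 16.2, 16.9 and 14.3 CPM in wild type and 17.7, 18.6 and 21.2 CPM in the knockout-labelled libraries. Every knockout-labelled value was above every wild-type one. The log2 fold change was 0.27 (SE 0.11, edgeR adjusted p = 0.0599), and it passed without wild-type library 2 (0.33, adjusted p = 0.0265) and under total-count or upper-quartile scaling (adjusted p = 0.0485 and 0.0425).

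Of the ERBB receptor genes none was called by edgeR, DESeq2 or limma voom, and none had an unadjusted p below 0.05 in edgeR. EGFR (ENSG00000146648; chromosome 7, 55019021 to 55211628, plus strand) was at 72.1, 77.1 and 64.2 CPM in wild type and 74.4, 75.5 and 88.1 CPM in the knockout-labelled libraries. Only knockout-labelled library 3 stood above all wild-type values. The fold was 1.11 (95% interval 0.999 to 1.24; edgeR adjusted p = 0.15), and without wild-type library 2, the highest of that group, EGFR was called higher (log2 fold change 0.22, adjusted p = 0.0209).

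ERBB2 (ENSG00000141736; chromosome 17, 39687914 to 39730426, plus strand), which has no ligand of its own and pairs with the other receptors, was at 213, 226 and 235 CPM in wild type. The knockout-labelled libraries had 221, 239 and 232 CPM, and the groups overlapped. Its fold was 1.03 (95% interval 0.946 to 1.11; edgeR adjusted p = 0.692), and the sign of its log2 fold change turned without wild-type library 1 (-0.0027). ERBB2 overlaps MIEN1 and PGAP3 on the opposite strand, whose log2 fold changes were -0.21 (edgeR adjusted p = 0.0725) and -0.10 (0.552).

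ERBB3 (ENSG00000065361; chromosome 12, 56076799 to 56103505, plus strand), a neuregulin receptor with an impaired kinase, was at 235, 248 and 217 CPM in wild type and 223, 232 and 242 CPM in the knockout-labelled libraries. The groups overlapped fully, with a fold of 0.996 (95% interval 0.916 to 1.08; edgeR adjusted p = 0.963). These intervals leave room for changes of the size of their bounds, and the sign of the ERBB3 value turned with the scaling.

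ERBB4 (ENSG00000178568; chromosome 2, 211375717 to 212538841, minus strand), the fourth receptor, was at 0 counts throughout wild type, against 2, 1 and 0 in knockout-labelled libraries 1, 2 and 3. A count of 0 over the wild-type group allows up to 0.0585 CPM (a floor of 3 counts over the group, counting error only). Both groups were at or under that floor, so no fold is given.

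LRIG1 (ENSG00000144749; chromosome 3, 66378797 to 66501263, minus strand), a transmembrane protein that promotes breakdown of ERBB receptors, fell. It was at 73.3, 76.8 and 80.8 CPM in wild type and at 61.8, 63.5 and 58.8 CPM in the knockout-labelled libraries, with no overlap. The level fell to 0.798 of wild type (95% interval 0.725 to 0.879; log2 fold change -0.33, SE 0.07, edgeR adjusted p = 0.000617), and the call held in all 14 alternatives. The relatives LRIG2 and LRIG3 had log2 fold changes of 0.09 and 0.02 and were not called. LRIG1 overlaps SLC25A26 on the opposite strand, whose log2 fold change was -0.22 (SE 0.10, edgeR adjusted p = 0.122).

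**Figure D3:**
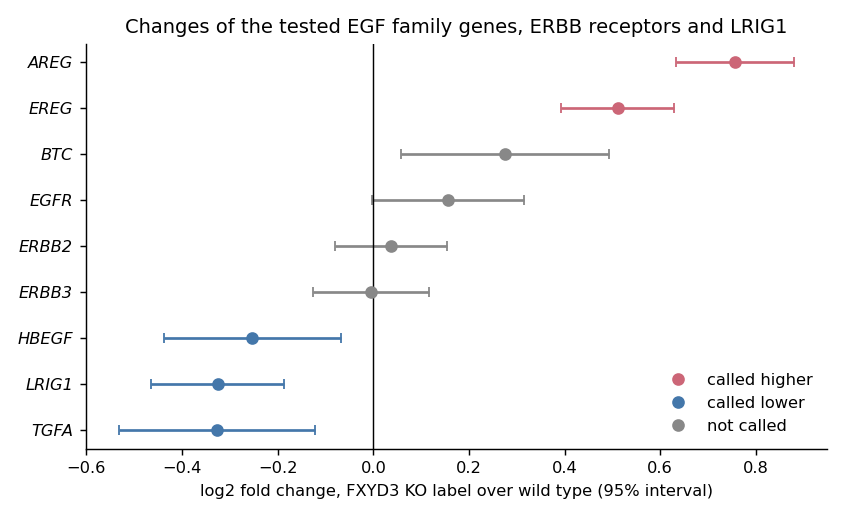
Log2 fold change (knockout label over wild type) of the 9 tested genes with its 95% interval, coloured by the edgeR call. AREG (0.76) and EREG (0.51) were called higher and HBEGF (-0.25), LRIG1 (-0.33) and TGFA (-0.33) lower; the intervals of EGFR, ERBB2 and ERBB3 include 0 and that of BTC does not.

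Levels of different genes are compared per gene length, as CPM per kilobase of all exons of the gene. That length joins the exons of all isoforms and can exceed that of the transcripts present, by amounts that may differ between genes. The order and the ratios below depend on this choice, close steps most of all. AREG was the highest of the 10 in wild type at 130 ± 6.97 CPM per kb (SD, n = 3), 3.01 times EREG at 43.3 ± 2.56 CPM per kb. Next came ERBB3 at 25.8 ± 1.69 and HBEGF at 24.2 ± 0.308 CPM per kb, whose ranges overlapped, and then ERBB2 at 21.8 ± 1.05 CPM per kb. LRIG1 had 10.9 ± 0.534 CPM per kb. EGFR and BTC, at 5.68 ± 0.518 and 5.61 ± 0.478 CPM per kb, could not be ordered, and TGFA followed at 4.23 ± 0.220 CPM per kb. ERBB4 was last. By this measure EGFR had about the level of the weaker ligand genes, and ERBB2 and ERBB3 were each several-fold above it.

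In the knockout-labelled libraries AREG and EREG were at 219.9 ± 13.8 and 61.8 ± 1.41 CPM per kb. HBEGF, at 20.3 ± 3.38 CPM per kb, no longer stood clear of ERBB2 at 22.4 ± 0.916 CPM per kb. BTC stood at 6.80 ± 0.643 CPM per kb, beside EGFR at 6.34 ± 0.609 CPM per kb. The lowest of the 3 AREG values per length was above the highest value of every other gene of the set.

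**Figure D4:**
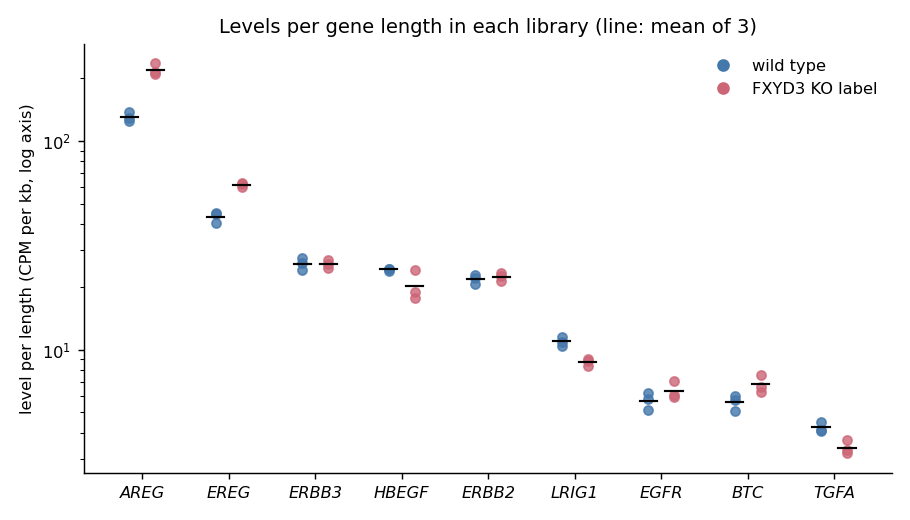
Level per gene length (CPM per kb, log axis) of the 9 detected genes in each wild-type (blue) and knockout-labelled (red) library, ordered by the wild-type mean, with lines at the means of 3 libraries. AREG is highest in both groups (130 and 219.9 CPM per kb) and TGFA lowest (4.23 and 3.38 CPM per kb).

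As a description, the 5 ligand genes summed to 207.4, 204.3 and 211 CPM per kb in wild type and to 306, 329.9 and 301 CPM per kb under the knockout label. AREG made up 62.7 ± 2.28% of that sum in wild type and 70.4 ± 0.935% in the knockout-labelled libraries, while EREG made up 20.9 ± 1.56% and 19.8 ± 1.35%. HBEGF had 11.7 ± 0.330% and 6.47 ± 0.768% of the sum, TGFA 2.04 ± 0.139% and 1.09 ± 0.102%, and BTC 2.71 ± 0.275% and 2.18 ± 0.274%. A share also falls when the sum rises. The BTC share was lower under the knockout label although its level per length was higher (5.61 and 6.80 CPM per kb). The 4 receptor genes summed to 53.3 ± 1.92 and 54.4 ± 2.21 CPM per kb, with EGFR at 10.7 ± 0.675% and 11.6 ± 0.773% of the sum. These are shares of transcript level per length, not of protein.

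The remaining ligand genes of the family were low. EGF was at 4.27, 5.78 and 4.77 CPM in wild type and 6.97, 5.87 and 7.38 CPM under the knockout label (edgeR log2 fold change 0.44, SE 0.17, adjusted p = 0.0597). The groups did not overlap, and EGF passed when replicate 2 of wild type (adjusted p = 0.0179) or of the knockout label (0.0487) was left out and under upper-quartile scaling (0.0484). The neuregulin gene NRG4 had 17, 13 and 13 counts in wild type and 4, 4 and 13 in the knockout-labelled libraries (edgeR adjusted p = 0.148); without knockout-labelled library 3 its adjusted p was 0.0399. NRG1 and NRG3 had 0 counts in all libraries and NRG2 had 1, so NRG1 and NRG2, which encode ligands of ERBB3, were not detectable or nearly so at this depth.

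Other genes of the pathway were taken from 7 further lists, 89 genes of which 80 were tested. Of these 12 were higher and 5 lower, 21.3% of them called, against 24.3% of all genes tested. The median log2 fold change of the 80 was 0.01 and that of all genes tested 0.00. By list, the share called was 0% for other EGF family ligands, 20% for ligand shedding and 17.6% for receptor inhibitors and turnover. It was 23.5% for receptor adaptors, 7.69% for the RAS-RAF-MEK-ERK core, 11.1% for PI3K-AKT and 41.2% for ERK feedback and immediate targets.

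Ligand shedding genes had 1 of 5 tested members higher and 0 lower. It was FRMD8, which binds the iRhom proteins and stabilises the ADAM17 sheddase at the cell surface. FRMD8 rose from 66.6, 70.5 and 67.6 CPM to 111, 114 and 121 CPM (log2 fold change 0.76, SE 0.06, edgeR adjusted p = 2.79e-10). The log2 fold change of ADAM17 was 0.01 (SE 0.09), and the iRhom genes RHBDF1 and RHBDF2 had -0.09 and -0.04. The median of the tested genes of the list was 0.01. RHBDL2 and TIMP3 were too low to test. TIMP3 had 8, 17 and 4 counts in wild type and 1, 0 and 1 in the knockout-labelled libraries. RHBDL2 had 6, 4 and 6 against 4, 7 and 6, and no fold is given for either gene.

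Of 17 inhibitor and turnover genes of the receptors, 2 were higher and 1 lower, with a median log2 fold change of 0.01. USP8, a deubiquitinase that acts on receptors in endosomes, fell from 55.8, 56.0 and 50.5 CPM to 30.1, 32.5 and 33.4 CPM (log2 fold change -0.76, SE 0.08, edgeR adjusted p = 1.75e-08). SH3KBP1, an adaptor in receptor endocytosis, rose by 0.31 on the log2 scale (SE 0.07). SOCS4 was called higher at 0.23 (SE 0.08, edgeR adjusted p = 0.043), a call lost in 8 of 14 alternatives, 4 of them those leaving out replicate 1 or 3 of either group (adjusted p 0.101 to 0.199). The kinase inhibitor gene ERRFI1 and the ubiquitin ligase genes CBL and CBLB were not called.

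Among 17 receptor adaptors, all tested, 3 were higher and 1 lower, with a median of -0.03. GAB1, a docking protein for SHP2 and PI3K, was low in wild type at 3.06, 3.03 and 1.92 CPM and rose to 12.1, 11.8 and 14.2 CPM (log2 fold change 2.24, SE 0.17, edgeR adjusted p = 5.11e-11). VAV2, which binds activated receptors, went the other way. It had 151, 197 and 141 counts in wild type and 7, 3 and 2 in the knockout-labelled libraries, or 9.50 ± 1.34 and 0.241 ± 0.183 CPM (edgeR adjusted p = 1.26e-13). EPS8, a receptor kinase substrate that acts on actin, rose from 115 ± 6.48 to 215.9 ± 7.06 CPM (log2 fold change 0.91, SE 0.06). SOS1, the exchange factor that loads RAS, was called higher at 0.25 (SE 0.09, edgeR adjusted p = 0.032). It did not pass in 5 of 14 alternatives, 3 of them those leaving out wild-type library 3 or library 1 or 3 of the knockout label (adjusted p 0.0501 to 0.195). The adaptor genes GRB2 and SHC1 were not called.

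In the RAS-RAF-MEK-ERK core 0 of 13 tested genes were higher and 1 was lower, MAPK3, which encodes ERK1, at 70.5 ± 4.66 and 57.4 ± 2.19 CPM (log2 fold change -0.30, SE 0.07, edgeR adjusted p = 0.0023). The median there was -0.02. Of 9 tested PI3K-AKT genes 1 was higher and 0 lower. PIK3R1, the main regulatory subunit of PI3K, rose from 76.5, 79.3 and 64.8 CPM to 103, 103 and 118 CPM (log2 fold change 0.55, SE 0.07, edgeR adjusted p = 3.45e-06), with a list median of 0.01.

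ERK feedback and immediate target genes had a median log2 fold change of 0.04. Of 17 tested members 5 were higher and 2 lower, 41.2% called against 24.3% of all genes tested. Their directions differed within the family of phosphatases that inactivate MAP kinases. DUSP6, specific for ERK, rose from 46.1, 43.9 and 39.1 CPM to 86.9, 85.6 and 86.4 CPM (log2 fold change 1.002, SE 0.07, edgeR adjusted p = 1.63e-11). DUSP5 rose from 24.99 ± 3.70 to 53.7 ± 4.66 CPM, and DUSP4 fell from 214 ± 14.6 to 109 ± 0.934 CPM (log2 fold change -0.98, SE 0.06, edgeR adjusted p = 4.67e-13). SPRY4, a feedback inhibitor of receptor kinase signalling, rose by 0.55 (SE 0.09). The other calls, SPRY1 and SPRY2 higher and PHLDA1 lower, are named after their values were seen and had log2 fold changes of 0.34, 0.30 and -0.16. EGR1 and FOS, early genes of ERK signalling, varied widely between libraries and were not called (log2 fold changes 0.42 with SE 0.24 and -0.85 with SE 0.27). The groups overlapped for EGR1 but not for FOS. FOS was at 187, 163 and 127 CPM in wild type and 64.6, 112 and 87.0 CPM in the knockout-labelled libraries (edgeR adjusted p = 0.105).

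**Figure D5:**
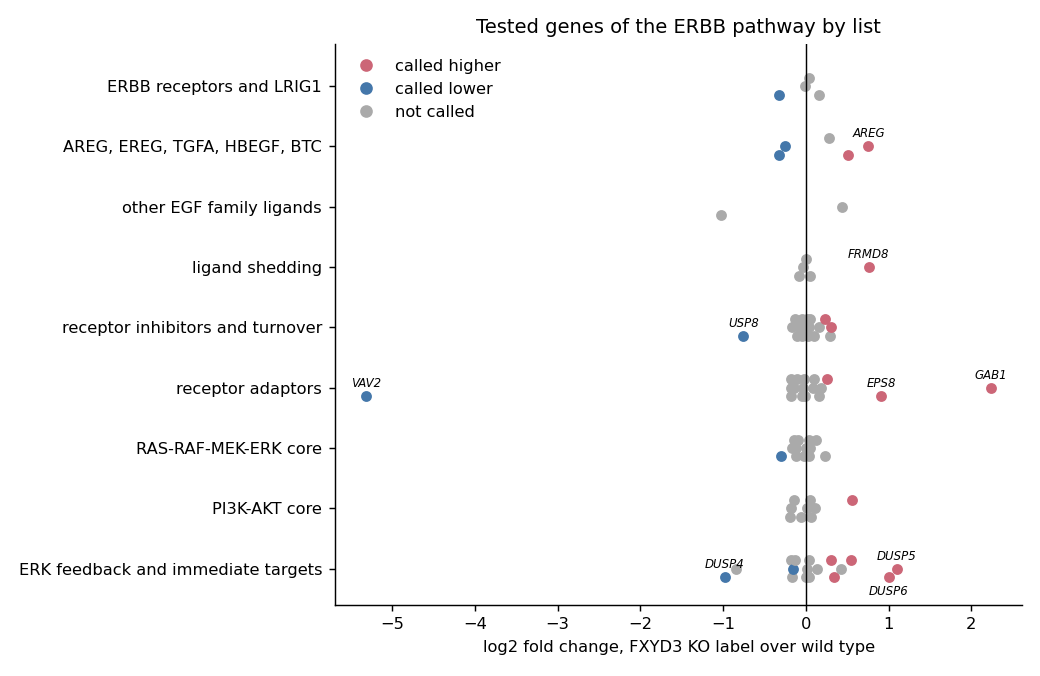
Log2 fold change (knockout label over wild type) of each tested gene of the pathway lists, 1 row per list, coloured by the edgeR call, with symbols beside called genes beyond 0.7 in either direction. Most genes lie near 0; GAB1 (2.24) and DUSP5 (1.10) lie furthest to the right and VAV2 (-5.32) furthest to the left.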

How the data were processed

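The authors deposited raw read counts per gene for 6 libraries. Per the submitters' processing notes HISAT2 2.0.5 and featureCounts 1.5.0-p3 were used, with a strand setting not given in the sources used here. Those notes list mm10, but all 58735 named genes carry human identifiers of GENCODE release 29, and 58724 have its GRCh38 start and end. The deposited table also gives a gene length (unit: other, bases), which for all 10 genes equals the union of GENCODE exons. Reads shared by several isoforms or overlapping genes cannot be separated.

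The table has 58967 rows. Those without a gene name (0.130 to 0.250% of counts) were left out. Columns were matched to samples by library name. edgeR 4.0.16 (R 4.3.3) quasi-likelihood tests, two-sided, used TMM normalization, filterByExpr with a minimum count of 10, robust estimation and no covariate. P-values were adjusted by Benjamini-Hochberg over the 15351 genes tested. CPM were computed here from the counts with TMM-scaled library sizes. Intervals are 95%. The set of 10 genes and the lists were proposed with earlier results of these data known, although no value entered the rule that finds their rows. Named were the 10 genes, FXYD3, all other EGF ligands, up to 4 called genes per list by smallest p, overlapping genes, coding genes within 200 kb of called members, and the 3 genes most correlated with AREG and with LRIG1; any other gene of a list was named after its values were seen. The testing step was run on simulated counts with changes larger than those of EREG, TGFA, HBEGF and LRIG1, so that run does not bear on their calls. The 14 alternatives were other scalings, filters, DESeq2 1.42.0, limma 3.58.1 (voom), a fit blocked on replicate number, and leaving out single libraries.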

Additional observations from a re-analysis of the deposited data

How the results depend on the processing

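The edgeR calls of AREG, EREG and LRIG1 passed in all 14 alternatives. DESeq2 called 2 of the 9 tested genes higher and 1 lower, and leaving out single libraries gave 2 to 4 higher (4 without wild-type library 2) and 1 to 3 lower (1 without knockout-labelled library 3). The sign of the ERBB3 log2 fold change turned under total-count scaling (0.0180) and upper-quartile scaling (0.0151), and leaving out single libraries gave -0.0575 to 0.0380 for ERBB3 and -0.0027 to 0.0687 for ERBB2. Replicate numbers gave no sign of pairing: deviations of same-numbered libraries correlated at 0.0277, -0.0978 and -0.123. Those of different-numbered libraries correlated at -0.0496 to 0.146. With so few libraries these values cannot exclude a pairing. With the replicate number as a block, 2 of the 9 were higher and 3 lower, as without it, and over all genes 1478 were higher and 1475 lower against 1839 and 1896. The alternatives were compared gene by gene for 27 of the genes named here. These were the 9 tested members, FXYD3, EGF, NRG4, MTHFD2L and the called genes taken by smallest p from each list. Among these 27 the block ended the calls of SOCS4 (adjusted p = 0.0957) and SOS1 (0.0718). It added that of FXYD3 as higher (0.0472), which also passed with upper-quartile scaling (0.0442) and with no filter on low counts (0.0479). Of 377 comparisons, 337 kept direction and call, 23 lost the call, 12 gained it and 5 turned sign. Other genes named here were not compared in this way. The cause was not tested. With 3 libraries a group and fewer than 3 counts of ERBB4 in any library, changes of ERBB4 were not detectable at this depth.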

Other observations

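By Pearson's r of log2(CPM + 0.5) over the 6 libraries, the coding genes most like AREG among 10485 genes of at least 5 CPM were COLGALT1, a collagen galactosyltransferase gene (r = 0.999; 228 ± 5.15 and 293 ± 6.20 CPM), COTL1, an actin-binding protein gene (0.999; 74.9 ± 3.90 and 126 ± 5.19 CPM), and CTXN1 (0.997; 27.8 ± 1.95 and 50.3 ± 4.26 CPM), in wild type and knockout-labelled libraries respectively (SD, n = 3). For LRIG1 they were GAS6, a ligand of TAM receptor kinases (r = 0.998; 137 ± 9.16 and 97.9 ± 7.25 CPM), RBM38 (0.997; 81.5 ± 4.81 and 63.1 ± 2.26 CPM) and SPPL3 (0.996; 102 ± 3.38 and 85.6 ± 2.18 CPM). LRIG1 was used because no ERBB receptor gene was called. It is a receptor regulator, so the genes most like it do not describe the receptors. The 6 points are 2 groups of 3 libraries, so r takes in the difference between the groups and also the spread of libraries inside each group. These genes were picked as the highest of 10485 values over 6 points, and shared regulation was not tested.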
